A study of Mus musculus with 12 samples.

Results

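The 7 genes followed here mark macrophages and monocytes or encode ligands that act on them. They were measured in RNA from mouse melanoma tumours and are Adgre1, Csf1r, Mrc1, Ccr2 and Cx3cr1, which macrophages or monocytes carry, and Csf1 and Cx3cl1, the ligands of 2 of these receptors. They were chosen by name and matched through the RefSeq accession in the probe set name, with the brightest probe set per gene, and they were 7 of 908 genes that could be named on a focused Affymetrix array of 1246 probe sets. Total RNA of 12 tumour samples was labelled as biotinylated cRNA, 1 array per sample, and levels are given on the log2 scale after RMA. The groups were Tm1N3 tumours of Gal3 -/- hosts, Tm1N3 tumours of wild-type (WT) hosts, Tm1G3 tumours of Gal3 -/- hosts and Tm1G3 tumours of WT hosts, with 3 arrays each. Both are melanoma lines. By its label Tm1N3 expresses galectin-3, and in Tm1G3 it is silenced. The series text describes a melanoma line with the gene silenced into which a plasmid coding for galectin-3 was put. Gal3 -/- hosts, called knockout here, lack the gene in their own cells, while the injected tumour cells carry whatever their line expresses. Mouse strain beyond the word syngeneic, age, tumour time point and the number of clones behind a line are not given in the sources used here. The number of arrays, 3 a group, limits the precision. The title of each sample opens with a number that no other sample shares, but no label states what it counts. Whether each replicate was a tumour of its own animal is therefore not given, and p-values cover only the spread between these samples, part of which may be technical.

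Macrophages in tumours derive largely from blood monocytes. CCR2 is the receptor through which monocytes follow chemokines such as CCL2 out of the marrow and into tissue. CSF-1, encoded by Csf1, is the growth factor on which most macrophages depend, and CSF1R, a receptor tyrosine kinase, is its receptor. CX3CL1, or fractalkine, is a chemokine tethered to the membrane of endothelial and epithelial cells, and CX3CR1 is its receptor on monocytes, resident macrophages and microglia. Adgre1 encodes F4/80, the surface protein most often used to identify mouse macrophages, and Mrc1 encodes the mannose receptor CD206, a lectin found on alternatively activated macrophages and also on some endothelial cells.

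The promoters of 5 of the 7 genes were at hand, from RefSeq on build GRCm38.p6. Those of Mrc1, Ccr2 and Csf1 are shown because these genes moved together over the arrays, and that of Cx3cl1 because it hardly varied. Each is the 250 bases before the start of the gene, 5′ to 3′ on the strand of the gene, at chr2:14229164-14229413 on the plus strand for Mrc1, chr9:124101933-124102182 on the plus strand for Ccr2, chr3:107760470-107760719 on the minus strand for Csf1 and chr8:94771930-94772179 on the plus strand for Cx3cl1. Capitals mark GAGGAA, the core that the myeloid factor PU.1 binds, TATAAA of a TATA box and GGGCGG of a GC box, each searched on both strands. No matches overlapped.
Mrc1: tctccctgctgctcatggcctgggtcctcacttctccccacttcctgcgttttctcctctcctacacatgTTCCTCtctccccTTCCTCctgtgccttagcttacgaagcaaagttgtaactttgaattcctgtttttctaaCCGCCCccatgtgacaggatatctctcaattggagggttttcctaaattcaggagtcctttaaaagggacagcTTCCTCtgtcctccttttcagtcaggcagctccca
Ccr2: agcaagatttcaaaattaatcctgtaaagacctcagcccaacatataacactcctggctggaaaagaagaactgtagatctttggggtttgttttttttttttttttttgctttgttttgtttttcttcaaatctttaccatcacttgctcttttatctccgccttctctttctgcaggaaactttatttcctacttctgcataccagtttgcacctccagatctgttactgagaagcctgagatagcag
Csf1: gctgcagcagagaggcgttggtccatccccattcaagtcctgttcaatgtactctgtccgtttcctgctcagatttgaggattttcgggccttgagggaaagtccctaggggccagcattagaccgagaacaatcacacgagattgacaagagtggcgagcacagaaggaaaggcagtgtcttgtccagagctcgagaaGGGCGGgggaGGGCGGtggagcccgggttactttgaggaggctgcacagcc
Cx3cl1: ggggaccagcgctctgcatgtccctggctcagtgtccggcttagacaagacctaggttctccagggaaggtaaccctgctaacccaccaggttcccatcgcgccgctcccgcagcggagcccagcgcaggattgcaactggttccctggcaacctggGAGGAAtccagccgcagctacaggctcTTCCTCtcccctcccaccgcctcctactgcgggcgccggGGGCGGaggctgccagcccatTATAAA

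GAGGAA occurred 3 times in the Mrc1 window and 2 times in that of Cx3cl1, and 23.3% of 32851 promoter windows of this length held it. The GC box occurred in Mrc1, Csf1 and Cx3cl1 (32.7% of all windows) and TATAAA in Cx3cl1 alone of the 5 (12.4% of all windows). The Ccr2 and Cx3cr1 windows held none of the 3. These motifs were picked after the windows and levels had been seen, and a match describes the letters and not a site in use. No promoter of Adgre1 or Csf1r is shown.

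Over all probe sets the arrays were alike, with Pearson correlations between arrays from 0.976 to 0.998 and array medians from 5.51 to 5.60. Lgals3, the gene that sets the groups apart, ran from 9.35 to 10.55 in Tm1N3 tumours of knockout hosts and from 9.72 to 10.39 in those of WT hosts, and from 8.98 to 9.80 in Tm1G3 tumours of knockout hosts and from 9.33 to 9.99 in those of WT hosts. The sources used here do not say where its probes lie relative to the deletion, the plasmid or a silencing sequence, so these overlapping levels check no label. Of 11 melanocyte and melanoma genes listed, Mcam and Kit alone were among the named genes, so the tissue could not be checked on its defining pigment genes.

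Adgre1, the F4/80 gene, had levels of 5.07, 5.23 and 6.90 in Tm1N3 tumours of knockout hosts (replicates 1, 2 and 3, an order kept throughout) and 5.51, 5.55 and 6.63 in Tm1N3 tumours of WT hosts, against 6.25, 5.91 and 5.87 in Tm1G3 tumours of knockout hosts and 7.98, 5.59 and 6.51 in Tm1G3 tumours of WT hosts. The lowest array and the highest were 7.52-fold apart, and 1 Tm1G3 tumour of a WT host stood above all others. The 3 Tm1G3 tumours of knockout hosts lay within 1.30-fold of each other, while the 3 of WT hosts were 5.24-fold apart. Group means ran, from low to high, 5.73 ± 1.02, 5.90 ± 0.64, 6.01 ± 0.21 and 6.69 ± 1.2 (SD, n = 3 each) in the order in which the groups are given above, and no neighbours in this order differed beyond their spread.

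Csf1r, the CSF-1 receptor gene, had levels of 6.55, 7.03 and 8.55 in Tm1N3 tumours of knockout hosts and 7.01, 6.93 and 8.30 in Tm1N3 tumours of WT hosts, against 7.92, 7.44 and 7.49 in Tm1G3 tumours of knockout hosts and 8.5, 7.16 and 8.10 in Tm1G3 tumours of WT hosts. In Tm1N3 tumours of both hosts the third array was high and the other 2 low, so the widest gap lay within a line and not between lines. The group means were 7.38 ± 1.05, 7.41 ± 0.77, 7.62 ± 0.26 and 7.92 ± 0.69 (SD, n = 3 each), in the same order as for Adgre1.

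Mrc1, the mannose receptor gene, had levels of 7.35, 7.85 and 9.22 in Tm1N3 tumours of knockout hosts and 7.82, 8.15 and 8.91 in Tm1N3 tumours of WT hosts, against 8.84, 8.51 and 8.42 in Tm1G3 tumours of knockout hosts and 8.63, 8.39 and 8.5 in Tm1G3 tumours of WT hosts. The 6 Tm1N3 arrays spread 3.65-fold, on both sides of the 6 Tm1G3 arrays, which lay within 1.36-fold of each other (SD 0.71 in Tm1N3 and 0.17 in Tm1G3 tumours, n = 6 each). That difference in spread was noticed in the values and was not tested. The group means were 8.14 ± 0.97 and 8.29 ± 0.56 in Tm1N3 and 8.59 ± 0.22 and 8.51 ± 0.12 in Tm1G3 tumours (SD, n = 3 each, knockout hosts given first in each line), so here the 2 Tm1G3 groups changed places in the order.

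Ccr2, the receptor gene of recruited monocytes, had levels of 5.53, 5.73 and 7.43 in Tm1N3 tumours of knockout hosts and 6.15, 6.09 and 6.98 in Tm1N3 tumours of WT hosts, against 6.90, 6.04 and 6.52 in Tm1G3 tumours of knockout hosts and 7.31, 5.97 and 6.65 in Tm1G3 tumours of WT hosts. Every group held arrays both above and below its overall median of 6.33, and the groups overlapped throughout. The group means, 6.23 ± 1.04, 6.41 ± 0.50, 6.49 ± 0.43 and 6.65 ± 0.67 (SD, n = 3 each), ran in the same order as those of Csf1r.

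Cx3cr1, the fractalkine receptor gene, had levels of 5.53, 5.49 and 5.94 in Tm1N3 tumours of knockout hosts and 5.61, 5.62 and 5.84 in Tm1N3 tumours of WT hosts, against 6.33, 5.93 and 6.02 in Tm1G3 tumours of knockout hosts and 7.31, 5.65 and 5.94 in Tm1G3 tumours of WT hosts. Replicate 1 of the last group, which was also the highest for Adgre1, stood far above the rest. Its probe set ends in s_at, a suffix for probes that may match more than 1 transcript. The 6 Tm1N3 arrays lay within 1.36-fold of each other. The group means were 5.65 ± 0.25, 5.69 ± 0.13, 6.09 ± 0.21 and 6.30 ± 0.89 (SD, n = 3 each).

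Csf1, the ligand of Csf1r, had levels of 7.57, 7.55 and 8.26 in Tm1N3 tumours of knockout hosts and 7.82, 7.61 and 8.07 in Tm1N3 tumours of WT hosts, against 8.5, 8.03 and 8.07 in Tm1G3 tumours of knockout hosts and 8.22, 7.76 and 8.08 in Tm1G3 tumours of WT hosts. It varied less than its receptor, within 1.92-fold over all arrays against 4.0-fold for Csf1r. The group means were 7.80 ± 0.41, 7.83 ± 0.23, 8.20 ± 0.26 and 8.02 ± 0.24 (SD, n = 3 each). The other of its 2 probe sets was dimmer, at a mean of 6.98 against 7.96, and followed the brighter one over the 12 arrays with r = 0.882, given as a description.

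Cx3cl1, the ligand of Cx3cr1, hardly varied, with 5.59, 5.72 and 5.74 in Tm1N3 tumours of knockout hosts and 5.69, 5.65 and 5.63 in Tm1N3 tumours of WT hosts, against 5.79, 5.77 and 5.84 in Tm1G3 tumours of knockout hosts and 5.74, 5.59 and 5.70 in Tm1G3 tumours of WT hosts. The 3 Tm1G3 tumours of knockout hosts were the highest of the 12, and all arrays lay within 1.19-fold of each other.

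**Figure D1:**
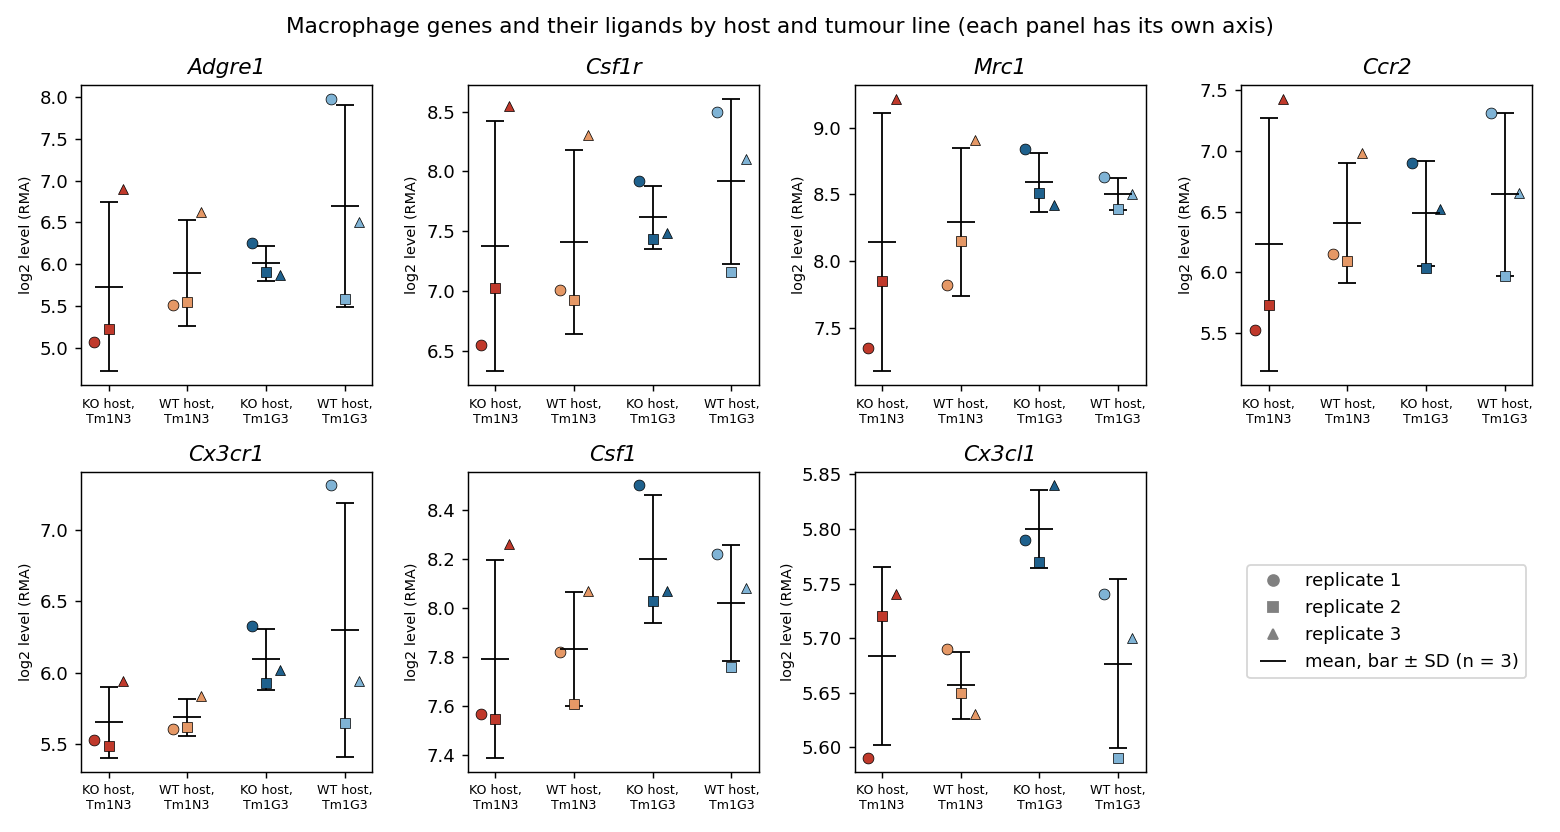
Log2 level (RMA) of each gene in the 4 groups of 3 tumours, 1 point per array with the shape giving the replicate number, and the mean with its SD as bar. The highest Adgre1 point, 7.98, and the highest Cx3cr1 point, 7.31, belong to replicate 1 of the Tm1G3 tumours of WT hosts, and the Cx3cl1 axis spans only 5.59 to 5.84.

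The comparison of Tm1N3 with Tm1G3 tumours asks whether macrophage genes followed the galectin-3 state given for the tumour line. All 7 genes had lower means in Tm1N3 tumours in either host, but none passed the test. Averaged over hosts, Cx3cr1 was 1.44-fold lower in Tm1N3 tumours, Adgre1 1.45-fold, Csf1r 1.30-fold, Mrc1 1.26-fold, Csf1 1.22-fold, Ccr2 1.19-fold and Cx3cl1 1.05-fold, each within the spread between arrays. With 1 array left out, the log2 differences ranged from -0.83 to -0.21 for Adgre1, from -0.67 to -0.17 for Csf1r, from -0.60 to -0.14 for Mrc1 and from -0.55 to -0.07 for Ccr2, lowest without replicate 3 and highest without replicate 1 of the Tm1N3 tumours of knockout hosts, except that Adgre1 was highest without replicate 1 of the Tm1G3 tumours of WT hosts. In bulk tumour RNA fewer cells of a type and less RNA per cell cannot be told apart.

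Averaged over hosts, 0 of 7 genes passed the threshold of 0.05 (limma, p adjusted by Benjamini-Hochberg over 1246 probe sets), beside 4.25% of all probe sets. At an unadjusted p under 0.05 it was also 0 of 7, beside 16.4%, and the lines overlapped for all 7, while for 3.29% of probe sets they did not. Cx3cr1 averaged 5.67 in Tm1N3 and 6.20 in Tm1G3 tumours (log2 difference -0.53 ± 0.24, SE; 95% interval from -1.07 to 0.01; limma, adjusted p = 0.32), the smallest adjusted p of the 7. Leaving out replicate 1 of the Tm1G3 tumours of WT hosts brought this difference to -0.27, and leaving out replicate 2 brought it to -0.69. Csf1 followed with -0.29 ± 0.15 (SE; interval from -0.63 to 0.04; limma, adjusted p = 0.387). For Adgre1 the interval was widest, from -1.50 to 0.43, which leaves room for a level 2.83-fold lower or 1.35-fold higher in Tm1N3 tumours. For Cx3cl1 it was narrowest, from -0.16 to 0.03. The median difference of the 7 genes was -0.33, against 0.00 over all probe sets, of which 49.0% were negative. Since the genes rise and fall together over arrays, 7 negative signs are not 7 separate observations.

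In knockout hosts the differences ran from -0.45 ± 0.41 for Mrc1 and -0.45 ± 0.34 for Cx3cr1 to -0.11 ± 0.06 for Cx3cl1 (SE), and none passed (0 of 7, beside 0.722% of all probe sets; smallest limma adjusted p = 0.677, for Csf1 at -0.40 ± 0.21). At an unadjusted p under 0.05 it was 0 of 7, beside 9.47%, and 7 of 7 were negative, beside 49.7%. Without replicate 3 of the Tm1N3 tumours of knockout hosts Mrc1 was at -0.99 and Csf1 at -0.63, and without replicate 1 of that group Adgre1, Csf1r and Ccr2 turned positive, at 0.06, 0.17 and 0.09. In WT hosts they ran from -0.80 ± 0.62 for Adgre1 and -0.61 ± 0.34 for Cx3cr1 to -0.02 ± 0.06 for Cx3cl1 (SE), and again none passed (0 of 7, beside 0.883% of all probe sets; smallest limma adjusted p = 0.537). At an unadjusted p under 0.05 it was 0 of 7, beside 13.1%, and 7 of 7 were negative, beside 49.5%. Without replicate 1 of the Tm1G3 tumours of WT hosts Adgre1 was at -0.15 and Cx3cr1 at -0.10, and without replicate 2 of that group Adgre1 was at -1.35 and Cx3cr1 at -0.93. The lines overlapped for all genes but Cx3cl1 in knockout hosts, where 5.59 to 5.74 in Tm1N3 tumours stood against 5.77 to 5.84 in Tm1G3 tumours and 13.7% of all probe sets did not overlap. In WT hosts they overlapped for all 7, while 16.9% of probe sets did not.

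The comparison of knockout with WT hosts asks whether galectin-3 of the host tissue went with a change in these genes. No gene passed in either line or on average (0 of 7 each, beside 0.0% of all probe sets in limma with Benjamini-Hochberg adjustment; at an unadjusted p under 0.05 also 0 of 7 each, beside 6.26% of probe sets for the average, 4.33% in Tm1N3 and 6.18% in Tm1G3 tumours). Averaged over lines, where 0.562% of probe sets and none of the 7 had hosts that did not overlap, Adgre1 differed by -0.42 ± 0.43 (SE; interval from -1.39 to 0.54), with means of 5.87 in knockout and 6.30 in WT hosts. It was at -0.10 without replicate 1 of the Tm1G3 tumours of WT hosts and at -0.72 without replicate 3 of the Tm1N3 tumours of knockout hosts. Csf1r differed by -0.17 ± 0.38, Ccr2 by -0.17 ± 0.36, Cx3cr1 by -0.12 ± 0.24 and Mrc1 by -0.04 ± 0.29 (SE). Averaged, 5 of 7 were negative, beside 53.6% of probe sets. The ligand genes were on the other side, Csf1 at 0.07 ± 0.15 and Cx3cl1 at 0.07 ± 0.04 (SE; interval from -0.02 to 0.17; limma, adjusted p = 0.751, the smallest of the 7).

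In Tm1N3 tumours the host differences of the 7 genes lay between -0.18 (Ccr2) and 0.03 (Cx3cl1), with SEs up to 0.62 for Adgre1. Of the 7, 6 were negative, beside 56.1% of probe sets, and all overlapped, while 7.62% of probe sets did not. In Tm1G3 tumours they lay between -0.69 ± 0.62 for Adgre1 and 0.18 ± 0.21 for Csf1 (SE), with 4 of 7 negative, beside 53.0% of probe sets. Adgre1 was at -1.24 without replicate 2 and at -0.04 without replicate 1 of the WT hosts of this line, and Csf1 at 0.28 without replicate 1 of the WT hosts and at 0.03 without replicate 1 of the knockout hosts. Cx3cl1 was the one gene whose hosts did not overlap, with 5.77 to 5.84 in knockout and 5.59 to 5.74 in WT hosts of Tm1G3 tumours (0.12 ± 0.06, SE; limma, adjusted p = 0.766), as for 12.4% of all probe sets. Whether the line difference depended on the host was tested as an interaction, and 0 of 7 passed, beside 0.0% of all probe sets (unadjusted p under 0.05, 0 of 7, beside 2.81%; negative, 4 of 7, beside 51.7%). The estimates ran from -0.24 ± 0.58 for Mrc1 to 0.52 ± 0.87 for Adgre1 (SE; smallest limma adjusted p = 0.996).

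**Figure D2:**
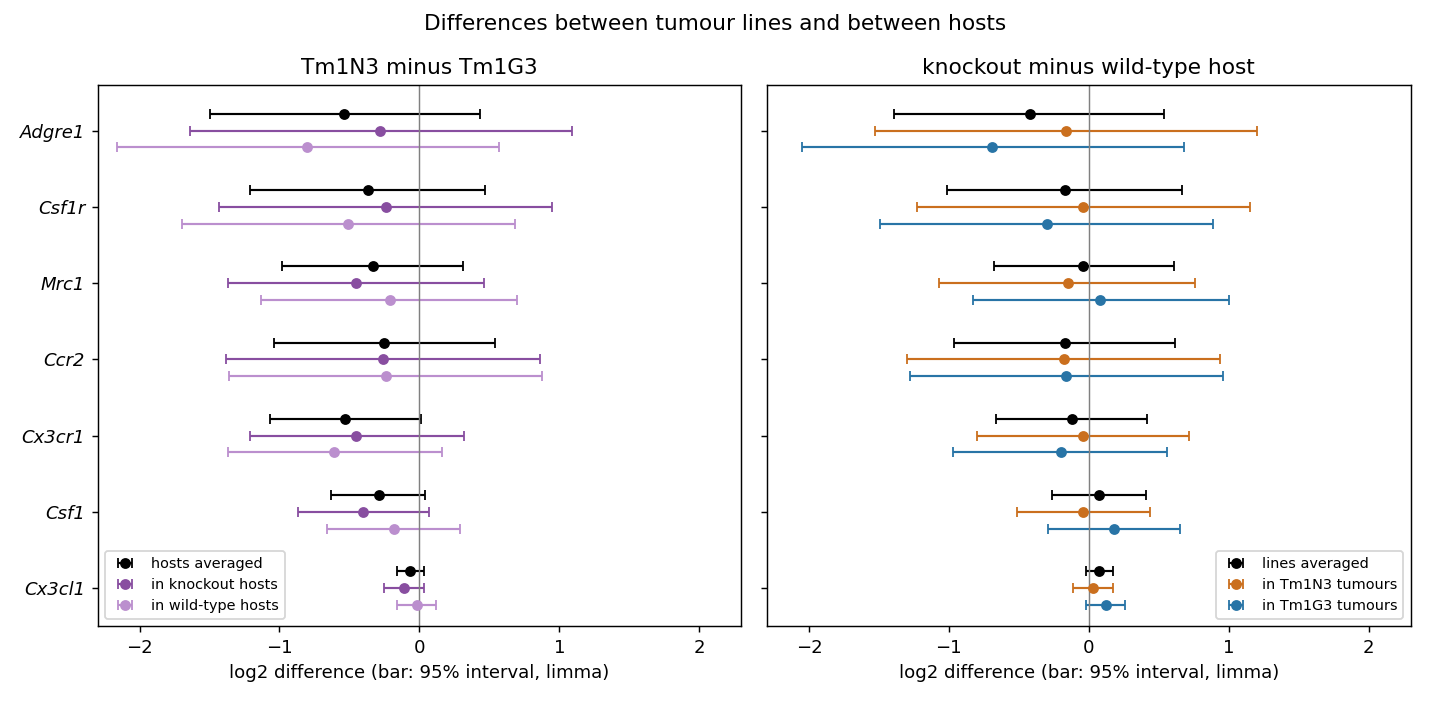
Log2 differences of the 7 genes with their 95% intervals from limma, left for Tm1N3 minus Tm1G3 tumours and right for knockout minus wild-type hosts, averaged and within each host or line. Of the averaged intervals, that of Cx3cr1 between lines ends nearest to 0, at 0.01, and every interval drawn includes 0.

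With the 4 groups pooled, all but Cx3cl1 varied widely between tumours of the same group, but not in every group. The SD of Mrc1 was 0.97 in Tm1N3 tumours of knockout hosts and 0.12 in Tm1G3 tumours of WT hosts. That of Cx3cr1 was 0.89 in Tm1G3 tumours of WT hosts, which hold the array at 7.31, and at most 0.25 in the other groups. Of the variation of Ccr2 over the 12 arrays 93.6% lay within groups, of Csf1r 88.9%, of Mrc1 87.4%, of Adgre1 78.5%, of Csf1 69.0% and of Cx3cr1 67.1%, beside a median of 70.6% over all probe sets. The size of it was unlike the median: the SD within groups was 0.856 for Adgre1, 0.746 for Csf1r, 0.702 for Ccr2, 0.572 for Mrc1 and 0.477 for Cx3cr1, against a median of 0.121, which put these 5 between the 95.3 and 99.0 percentile of all probe sets. Csf1, at 0.292, stood at the 88.6 percentile and Cx3cl1, at 0.0626, at the 7.87 percentile. The tumour line held 30.6% of the variation of Cx3cr1 and 25.9% of that of Csf1, and for the other members at most 19.2%, and the host held the largest share, 24.6%, for Cx3cl1.

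The same tumours were high or low for 6 of the genes, all but Cx3cl1. Within each group 1 tumour was the highest of its 3 for all 6, replicate 3 in Tm1N3 tumours of either host and replicate 1 in Tm1G3 tumours of either host. On 4 arrays all 6 genes lay above their own mean of 12 arrays: replicate 3 of the Tm1N3 tumours of knockout hosts, replicate 1 of the Tm1G3 tumours of knockout hosts, and replicates 1 and 3 of the Tm1G3 tumours of WT hosts. On 4 others all 6 lay below: replicates 1 and 2 of the Tm1N3 tumours of knockout hosts and replicates 1 and 2 of those of WT hosts. Replicate 1 of the Tm1N3 tumours of knockout hosts was the lowest array for Adgre1, Csf1r, Mrc1, Ccr2 and Cx3cl1. Its array median, 5.51, was also the lowest of the 12. After centring every array on its own median, the correlations given next still passed for 14 pairs by Pearson, and for 15 in place of 17 by Spearman.

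**Figure D3:**
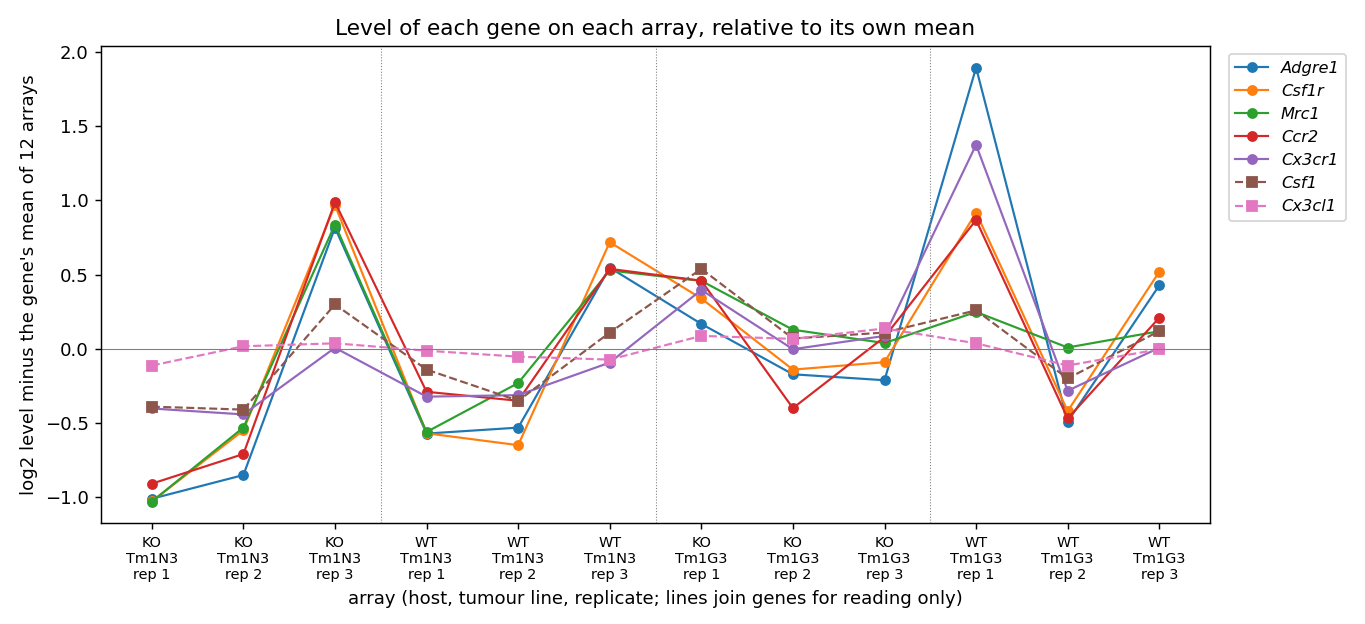
Log2 level of each gene on each array minus the mean of that gene over the 12 arrays, with the arrays in groups on the horizontal axis and dotted lines between groups. In each of the 4 groups the 6 genes other than Cx3cl1 peak on the same tumour, while Cx3cl1 stays near 0.

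Of 21 pairs among the 7 genes, 14 correlated over the 12 arrays with an adjusted p under 0.05 (Pearson, permutation test with 100000 resamples, two-sided, Benjamini-Hochberg over 21 pairs), and 17 by Spearman. Csf1r and Ccr2 had the highest Pearson coefficient (r = 0.954, permutation adjusted p = 0.00021; rho = 0.888, permutation adjusted p = 0.00123), followed by Adgre1 with Csf1r (r = 0.924, permutation adjusted p = 0.00021; rho = 0.958) and Adgre1 with Ccr2 (r = 0.909, permutation adjusted p = 0.00028; rho = 0.902). Mrc1 with Cx3cr1 was the one pair of the 5 macrophage genes that did not pass by Pearson (r = 0.486, permutation adjusted p = 0.152), although its ranks passed (rho = 0.727, permutation adjusted p = 0.014). The share of other gene pairs on the array that correlate as closely was not counted. The count of pairs therefore does not set these genes apart from others.

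The ligand and receptor pairs are given side by side, and whether their coefficients differed was not tested. Csf1 correlated with Csf1r at r = 0.831 (permutation p = 0.00129, adjusted p = 0.00301) and rho = 0.846 (permutation adjusted p = 0.00246), and Csf1 also passed with each of the other macrophage genes, with r from 0.685 to 0.852. Cx3cl1 with Cx3cr1 gave r = 0.443 (permutation p = 0.153, adjusted p = 0.189) and rho = 0.657 (permutation adjusted p = 0.0316). None of the 6 pairs of Cx3cl1 passed by Pearson, its highest being with Csf1 (r = 0.603, permutation adjusted p = 0.0542). By Spearman its pair with Csf1 passed too (rho = 0.622, permutation adjusted p = 0.0426). After centring every array on its median neither of these rank results passed. The pair with Cx3cr1 was then at rho = 0.497 (permutation adjusted p = 0.138) and that with Csf1 at rho = 0.427 (permutation adjusted p = 0.209). Neither passed by rank on deviations from the 4 group means (permutation within groups, adjusted p = 0.191 and 0.343). Cx3cl1 spanned only 5.59 to 5.84, which leaves little variation to follow. Without the 2 arrays farthest from the median of the gene named first in each pair, 14 pairs passed again, r ranging from 0.542 to 0.980 among the 5 macrophage genes and from 0.798 to 0.924 for Csf1 with them. Taken as deviations from the 4 group means, so that no difference between lines or hosts enters, 15 pairs passed an exact permutation within groups (adjusted p from 0.00648 to 0.00873 among the 5 macrophage genes).

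These tests take every array as independent, but arrays with the same replicate number in both hosts of a line deviated together. The p-values over 12 arrays, over the 6 arrays of a line and within groups are therefore too small. The 6 arrays of a host hold no such pair, but any tie between lines was not modelled. With the 2 arrays of each such number averaged, chosen after seeing the data, 6 sets remained, and 11 of 21 pairs passed (exact permutation test over sets, Benjamini-Hochberg over 21 pairs), 8 by Spearman. Of the 10 pairs of macrophage genes 7 passed, with r from 0.581 to 0.984 for the 10, and of the 5 pairs of Csf1 with them 4 did, with r from 0.828 to 0.969. Csf1r with Ccr2 was at r = 0.984 (exact permutation adjusted p = 0.0175) and Csf1 with Csf1r at r = 0.923 (exact permutation adjusted p = 0.0398). Csf1r with Cx3cr1, Ccr2 with Cx3cr1 and Mrc1 with Csf1, which passed over 12 arrays, did not.

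Within the 6 Tm1N3 arrays r among the 5 macrophage genes ran from 0.947 to 0.993. All 10 of these pairs and all 5 with Csf1 passed an exact permutation test over arrays, but the arrays form 3 sets of 2, too few for a test over sets. Within the 6 Tm1G3 arrays, with the same limit, 3 of 21 pairs passed: Adgre1 with Csf1r (r = 0.927), Ccr2 with Cx3cr1 (r = 0.886) and Mrc1 with Csf1 (r = 0.931), each with an exact permutation adjusted p of 0.0389. Mrc1 had r = 0.977 with Adgre1 and r = 0.971 with Csf1r in Tm1N3 tumours, against r = 0.407 and 0.559 with the same genes in Tm1G3 tumours (exact permutation adjusted p = 0.492 and 0.413 in Tm1G3 tumours). By Spearman 0 of 21 pairs passed within either line after adjustment. Whether coefficients differed between the lines was not tested. By host, 7 pairs passed within knockout and 6 within WT hosts.

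**Figure D4:**
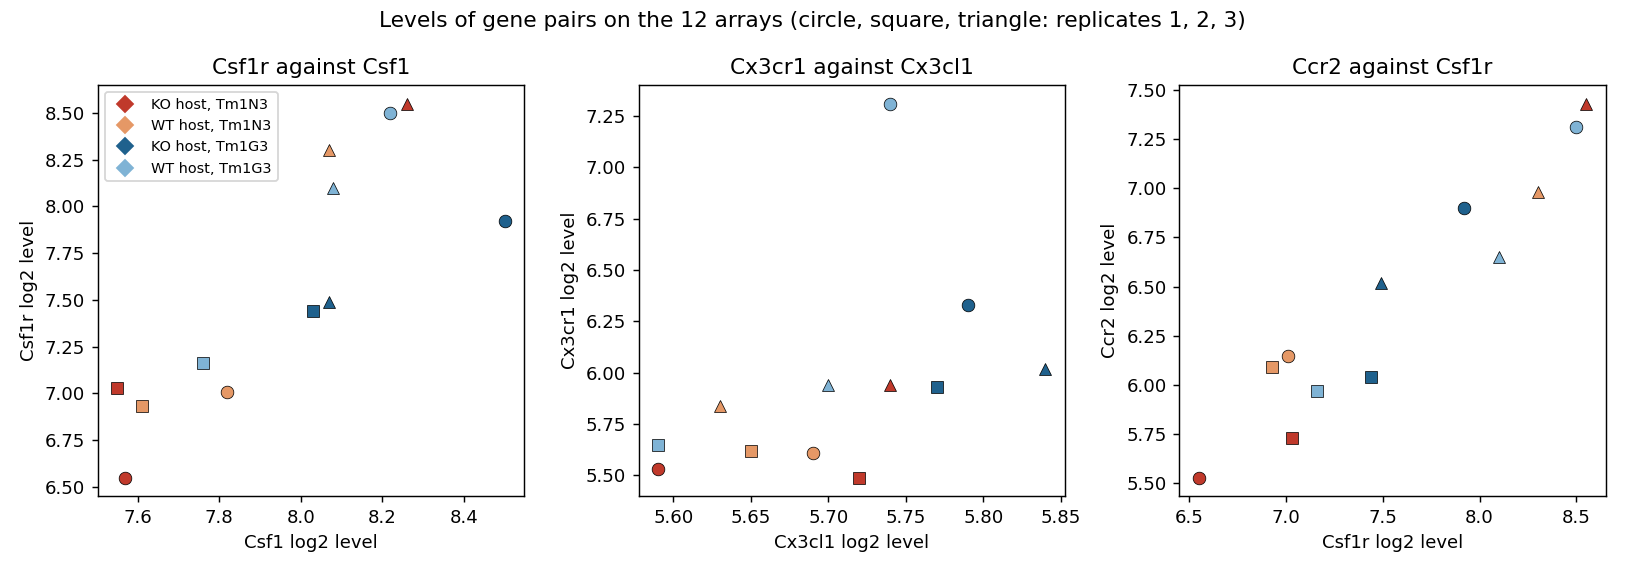
Log2 levels of Csf1r against Csf1, Cx3cr1 against Cx3cl1 and Ccr2 against Csf1r, 1 point per array, coloured by group and shaped by replicate. Csf1 and Csf1r rise together (r = 0.831), Cx3cl1 spans 5.59 to 5.84 with 1 array at a Cx3cr1 level of 7.31, and Csf1r and Ccr2 lie close to a line (r = 0.954).

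The same 6 genes also followed the main axis of variation of the whole array. The leading principal component of all 1246 probe sets, which held 37.2% of the variance, correlated with Ccr2 at r = 0.966 and Csf1r at r = 0.961 (permutation adjusted p = 3.5e-05 each over 7 genes, with 1e-05 the smallest unadjusted p that the resamples can give; rho = 0.909 and 0.944), with Adgre1 at 0.934, Csf1 at 0.867, Mrc1 at 0.863 and Cx3cr1 at 0.762, and less with Cx3cl1 (r = 0.423, permutation adjusted p = 0.169). Without the 2 arrays farthest from the median of the component, these were 0.938 for Ccr2 and 0.938 for Csf1r. On the next component, with 19.2% of the variance, where the lines lie apart, none of the 7 passed, with r (the Tm1G3 side taken as positive) from -0.051 for Ccr2 to 0.361 for Cx3cr1 (smallest permutation adjusted p = 0.87). The members are themselves among the probe sets from which the components were drawn. How many other probe sets follow the leading component as closely was not counted. Levels were centred but not scaled, so probe sets with a large spread weigh more in the components. These tests also take every array as independent, so their p-values are too small for the reason given above.

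The genes whose levels most resembled each member over the 12 arrays were ranked among 901 other named genes by Pearson r, as a description. For Adgre1 they were the C-type lectin genes Clec4a3 (0.980) and Clec4d (0.941), the proteoglycan gene Srgn (0.953), the interleukin-1 decoy receptor gene Il1r2 (0.945) and Csf2rb (0.934), a shared chain of the GM-CSF, interleukin-3 and interleukin-5 receptors. For Csf1r they included Cd48 (0.960), a surface protein gene of leukocytes, the fibroblast proteoglycan gene Dcn (0.958), Csf2rb2 (0.953) and Ugt1a6b (0.942). For Ccr2 they were Csf2rb (0.955), the sialoadhesin gene Siglec1 (0.946), the matrix proteoglycan gene Vcan (0.945), Csf2rb2 (0.943) and Clec4n (0.941), which encodes dectin-2.

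Among the 5 closest genes, Mrc1 shared Clec4n with Ccr2 and Dcn with Csf1r. Cx3cr1 shared none with another member. Closest to Mrc1 were Tgfbr2 (0.964), a TGF-beta receptor gene, Clec4n (0.938), Dcn (0.915), Tgfbr3 (0.897) and the galactosyltransferase gene B4galt1 (0.896). Closest to Cx3cr1 were the inflammatory genes Il6 (0.939) and Il1b (0.939), Clec4e (0.929), which encodes the receptor Mincle, Klra2 (0.922) and the chemokine gene Ccl4 (0.916). Il1b ran from 5.92 to 11.08 over the 12 arrays. Il6, Clec4e and Klra2 were dim, at means of 4.17, 3.30 and 3.61. Cx3cr1 itself was at 7.31 on replicate 1 of the Tm1G3 tumours of WT hosts and at most 6.33 on any other array. That array therefore weighs heavily in these coefficients. Closest to Csf1 were Wnt9a (0.927), the monocyte chemokine gene Ccl7 (0.909), Cd48 (0.903), Il6st (0.899) and Clec4n (0.886). For Cx3cl1 no gene reached 0.8, the highest being Notch1 (0.759), Anapc2 (0.747) and the endothelial gene Pecam1 (0.742). Clec4n was among the 5 closest to 3 members, Mrc1, Ccr2 and Csf1. On deviations from group means the closest were Clec4a3 to Adgre1 (0.985), Tgfbr2 to Mrc1 (0.977), Vcan to Ccr2 (0.985), Clec4e to Cx3cr1 (0.974), Csf2rb2 to Csf1 (0.972) and Siglecf, a dim probe set, to Cx3cl1 (0.875).

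Other genes of the same cells were taken from lists of markers. Of 28 other macrophage and monocyte markers listed, 7 were among the named genes, namely Siglec1, Timd4 and 5 C-type lectin genes, and 0 of 7 passed between lines or between hosts (limma; 0 of 7 in either averaged comparison at an unadjusted p under 0.05). Between lines, averaged over hosts, 5 of these 7 were negative, beside 49.0% of probe sets, with a median of -0.08. For the members it was 7 of 7 and -0.33. The brightest markers were Clec10a, which encodes a macrophage galactose lectin (log2 difference between lines 0.04 ± 0.38, SE), Clec4d (-0.53 ± 0.56) and Clec4n (-0.41 ± 0.36). Of 8 measured myeloid growth factor and receptor genes none passed (0 at an unadjusted p under 0.05 in either averaged comparison), among them Csf2rb (-0.32 ± 0.37), Csf2ra (0.25 ± 0.17) and Csf3 (-0.22 ± 0.21), and the list's median was -0.10. Of 11 monocyte chemokine and receptor genes Ccl5, a chemokine of T cells and monocytes, fell in Tm1N3 tumours on average over hosts (-0.65 ± 0.12, SE; limma, adjusted p = 0.0113) and 10 did not pass, with Ccl7 at -0.56 ± 0.38 and Ccl8 at -0.23 ± 0.36 (SE). Their median was -0.39, and 10 of 11 were negative, beside 49.0% of probe sets. Of all probe sets 4.25% passed in the averaged line comparison and 0.0% in the averaged host comparison. At an unadjusted p under 0.05 in limma it was 16.4% and 6.26%.

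Genes of classical and alternative macrophage activation were set side by side. Of 9 measured genes of classical activation Il18 fell in Tm1N3 tumours (-1.2 ± 0.08, SE, limma adjusted p = 2.2e-05) and 8 did not pass, where 4.25% of all probe sets passed. Among these were Il1b at -0.93 ± 0.73 and Cxcl10 at -0.04 ± 0.14 (SE). Averaged over hosts all 9 were negative, beside 49.0% of probe sets, with a median of -0.41. In WT hosts 6 of 9 were negative, beside 49.5%, and in knockout hosts 9 of 9, beside 49.7%. Il1b reached 11.08 in Tm1G3 tumours of WT hosts (mean 7.96 ± 2.7, SD, n = 3). The list's mean was 6.46 on replicate 1 of that group and at most 5.87 on any other array. Of 11 genes of alternative activation none passed in limma. Averaged over hosts, 1 between lines, Vegfa, had an unadjusted p under 0.05, beside 16.4% of probe sets. Clec10a was as above, Tgfb1 at 0.00 ± 0.13 and Vegfa at 0.49 ± 0.16 (SE). Of the 11 genes 4 were negative, beside 49.0% of probe sets, and the median was 0.05. Neither Il18 (r = 0.242 with Csf1r over 12 arrays, a description) nor Ccl5 (0.21) followed the members over the arrays as the genes above did.

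Markers of other cells moved with the members to unequal degrees. The mean level of 7 fibroblast and matrix genes ranged from 6.46 to 8.03 in Tm1N3 tumours of knockout hosts and from 6.92 to 7.81 in those of WT hosts, and from 6.78 to 7.39 in Tm1G3 tumours of knockout hosts and from 6.85 to 7.35 in those of WT hosts. It was lowest and highest on the arrays that were also lowest and highest for Csf1r, Mrc1 and Ccr2. The mean of 3 neutrophil genes was 5.81 on replicate 1 of the Tm1G3 tumours of WT hosts and from 4.82 to 5.24 on the other 11 arrays. Csf3r, the G-CSF receptor gene, and Cxcr2 reached 6.97 and 5.7 in that group, against at most 5.76 and 5.07 in the other groups, while Cxcr1 spanned 4.65 to 4.8 there and reached 4.99 in Tm1N3 tumours of WT hosts. Over all arrays 9 T and NK cell genes averaged from 3.93 to 4.25, 4 B cell genes from 4.72 to 4.82 and 8 dendritic cell genes from 4.76 to 4.96. These means lay below the array medians of 5.51 to 5.60, and a list mean can hide single genes. Il7r, 1 of the 9 T and NK cell genes, had r = 0.961 with Csf1 on deviations from group means, at a mean level of 3.77. The 5 endothelial genes averaged from 6.76 to 7.32, and the melanoma genes Mcam and Kit from 7.53 to 8.74, both lowest on replicate 1 of the Tm1N3 tumours of knockout hosts. Between lines, averaged over hosts, 5 of these genes passed in limma, beside 4.25% of all probe sets. They were 1 of 9 T and NK cell genes, 1 of 5 endothelial genes, 1 of 7 fibroblast and matrix genes and both melanoma genes. None of the neutrophil, B cell or dendritic cell genes passed. Havcr2, a checkpoint receptor gene of T cells and myeloid cells (-0.40 ± 0.05, SE), Icam2, an endothelial adhesion gene (-0.40 ± 0.08), and Kit, the stem cell factor receptor gene of melanocytes and mast cells (-0.99 ± 0.15), fell in Tm1N3 tumours, and Mcam (0.66 ± 0.15) and the elastic fibre gene Fbln5 (0.76 ± 0.12) rose. Among the brightest measured genes of each list, those that did not pass included Dcn (-0.51 ± 0.47), Pecam1 (-0.13 ± 0.18), Csf3r (-0.20 ± 0.24), Cd2 (-0.07 ± 0.09, at dim group means of 4.58 to 4.69), Cd22 (-0.02 ± 0.07) and Cd209a (0.16 ± 0.15). Their part in the levels of the macrophage genes was not tested.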

How the data were processed

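RNA of 12 tumour samples was hybridised to an Affymetrix array, 1 array each. The deposited values are log2 levels made by the authors with RMA, per the submitters' processing notes (version not given); RMA corrects background, quantile normalizes and summarises probes. They ran from 2.14 to 13.9 and were used as deposited. No scanner files were used here, so signal over background could not be examined. Of 1246 probe sets 962 were named, for 908 symbols, through RefSeq accessions of assembly GRCm38.p6; the brightest of a gene was used.

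Means of the 4 groups were modelled over the 12 arrays for every probe set in limma 3.58.1 (lmFit, eBayes; R 4.3.3; 8 residual and 2.39 prior degrees of freedom), and p-values were adjusted over 1246 probe sets for each of 7 comparisons (threshold 0.05). The procedure was tested on simulated data. Correlations over arrays were tested by permutation in Python with numpy. Genes named are the 7 members, from each of 13 marker lists those past the threshold and the 3 brightest, and the 5 most alike each member; 1 of these genes is not reported here. Members and lists were chosen with earlier results of these data known.

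Arrays with the same replicate number in both hosts of a line deviated together, so the number was taken to pair hosts within a line. Correlations of deviations from group means over probe sets ran from 0.184 to 0.752 in Tm1N3 and from 0.249 to 0.308 in Tm1G3 tumours. Between lines they ran from -0.660 to 0.273 in knockout hosts and from 0.00808 to 0.544 in WT hosts. The number was not taken to pair lines, so any tie between WT arrays of the 2 lines was not modelled. Alternatives were renormalization, centring, a filter on dim probe sets, another prior, fewer arrays, a replicate block, other probe sets and leaving out each array.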

Additional observations from a re-analysis of the deposited data

Results flagged for a closer look

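Over the 6 arrays of WT hosts, Cx3cr1 had 1 array far from the others: replicate 1 of the Tm1G3 tumours, at 7.31, where the next highest array of WT hosts was at 5.94. The gap was 0.808 of the whole range, above Dixon's critical value for 6 arrays at the 95% level. It was the one such array in 28 sets of 6 arrays (each gene in either line and in either host), and chance gives about 1 in 20. On the same array Adgre1 was at 7.98 and the mean of 3 neutrophil genes at 5.81, with Csf3r and Cxcr2 but not Cxcr1 above every other array, and the part of either in the Cx3cr1 level was not tested.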

How the results depend on the processing

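No member passed in any comparison under any alternative run, the replicate blocks among them, where the count of members stayed at 0 (smallest limma adjusted p = 0.115, Csf1 between lines averaged over hosts without replicate 3 of the Tm1N3 tumours of knockout hosts). With 3 arrays a group, differences inside the intervals given above were not excluded. Of 588 member differences with 1 array left out 50 changed sign, all of them uncalled, and of 308 under the other settings 1 did: Cx3cl1 between lines in WT hosts was at 0.01 after quantile normalizing again. The range with 1 array left out, between lines in knockout hosts, was -0.86 to 0.06 for Adgre1, -0.83 to 0.17 for Csf1r and -0.86 to 0.09 for Ccr2. The range with 1 array left out, between lines in WT hosts, was -0.52 to 0.02 for Mrc1, -0.57 to 0.10 for Ccr2 and -0.06 to 0.01 for Cx3cl1. The range with 1 array left out, between hosts averaged over lines, was -0.46 to 0.05 for Csf1r, -0.30 to 0.16 for Mrc1, -0.47 to 0.01 for Ccr2, -0.28 to 0.13 for Cx3cr1 and -0.05 to 0.13 for Csf1. The range with 1 array left out, between hosts in Tm1N3 tumours, was -0.75 to 0.20 for Adgre1, -0.62 to 0.41 for Csf1r, -0.69 to 0.24 for Mrc1, -0.78 to 0.17 for Ccr2, -0.18 to 0.04 for Cx3cr1, -0.27 to 0.09 for Csf1 and 0.00 to 0.08 for Cx3cl1. The range with 1 array left out, between hosts in Tm1G3 tumours, was -0.04 to 0.17 for Mrc1, -0.49 to 0.18 for Ccr2 and -0.53 to 0.30 for Cx3cr1. The range with 1 array left out, in the interaction, was -0.12 to 1.07 for Adgre1, -0.32 to 0.71 for Csf1r, -0.78 to 0.16 for Mrc1, -0.62 to 0.33 for Ccr2 and -0.34 to 0.49 for Cx3cr1. The averaged line differences kept their sign in all of these fits, but their sizes moved, from -0.69 to -0.27 for Cx3cr1, from -0.41 to -0.22 for Csf1 and from -0.09 to -0.04 for Cx3cl1 with 1 array left out, and for the other 4 genes as given beside their folds.

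The count of all probe sets past the threshold between lines with 1 array left out ranged from 32, when replicate 2 of the Tm1G3 tumours of knockout hosts was dropped, to 63 averaged over hosts, from 5 to 13 in knockout hosts and from 2 to 21 in WT hosts. In knockout hosts it was 4 with only the arrays of the 2 groups, and in WT hosts 3 with only those and 6 after median centring of the arrays. With fewer arrays the spread rests on fewer degrees of freedom. The count of correlated pairs, 14 of 21, was 3 within Tm1G3 tumours and, chosen after seeing the data, 7 within knockout and 6 within WT hosts, each on 6 arrays; the last turned r of Mrc1 with Cx3cl1 to -0.082. The cause of these shifts was not tested.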
